A study of Mus musculus with 12 samples.

Results

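The genes described here are 9 markers of dendritic cells, Flt3, Zbtb46, Batf3, Ccr7, Cd209a, Xcr1, Clec9a, Dpp4 and Siglech, taken by symbol from a count table of 54532 mouse genes. They were measured by RNA sequencing in 12 libraries from cultures of bone marrow cells of wild-type (WT) C57BL/6 mice. All of the cultures were grown in medium with GM-CSF and IL-6 and harvested at day 5, and all received fresh medium and agent at day 3. The groups were 4 libraries of cells given the DMSO vehicle, 4 of cells given 10 µM IPA and 4 of cells given 50 µM IPA, where IPA is indole-3-propionic acid, a product of bacterial tryptophan metabolism. The study asked how this metabolite acts on myeloid cells. All of the 9 genes passed the filter on low counts (over 0.5 CPM, the read count scaled to a common library size, in at least 2 of the 12 libraries), as did 14894 genes of the table. The labels do not say whether the 4 libraries of a group came from separate mice or cultures, so the p-values measure only the spread between these libraries, which may be technical. The age and sex of the mice were not given in the labels. The paper's methods give an age range and state that its C57BL/6 mice were female.

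Dendritic cells take up antigen and present it to T cells, and they arise in the bone marrow from progenitors that carry the growth factor receptor FLT3. Conventional dendritic cells share the transcription factor ZBTB46. They fall into a type 1, which depends on BATF3 and carries the chemokine receptor XCR1 and the lectin CLEC9A, and a type 2, while plasmacytoid dendritic cells carry SIGLECH and make type I interferon. On maturation the conventional cells gain the chemokine receptor CCR7, which guides them to lymph nodes. Bone marrow cells in GM-CSF give a mixture of granulocytes, macrophages and cells with dendritic features, so a level in these libraries is a mean over all of the cells in the culture. In such bulk samples fewer cells of a type and less RNA per cell cannot be told apart. IL-6 is known to direct GM-CSF cultures toward suppressive myeloid cells.

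Batf3 had the clearest differences of the 9 genes. Its mean level was 6.42 CPM in vehicle, 10.1 CPM at 10 µM IPA and 14.7 CPM at 50 µM IPA. At 50 µM IPA 4 of the 9 genes, Batf3, Clec9a, Ccr7 and Zbtb46, were higher than in vehicle and none was lower. Over all genes tested, 13.5% passed the same threshold in that comparison. At 10 µM IPA none of the 9 genes passed it in edgeR, where 2 had an unadjusted p under 0.05 and 0.410% of all genes passed. In DESeq2 1 of the 9 passed, as did 250 of the 14894 genes. The paper reports that cell viability in such cultures was slightly reduced at the higher dose of IPA. For that reason its authors centred their RNA analysis on the lower dose. The part of viability in the differences at 50 µM IPA was not tested.

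The 4 genes that rose at 50 µM IPA lie on different chromosomes. The 9 genes were located in the GENCODE M21 annotation of GRCm38, and 8 of them matched an entry in a RefSeq table of 32851 promoters (GRCm38.p6), each holding 250 bases before and 50 after a gene's start in RefSeq. For Batf3 and Zbtb46 that start lies inside the gene as GENCODE annotates it, so that these windows belong to a start downstream of the 5′ end of the annotated gene. The promoters of Batf3, Zbtb46 and Clec9a are shown because these genes rose together at 50 µM IPA, and that of Cd209a because its level was lowest at that dose. Capitals mark matches, on either strand, to 4 motifs that were searched, namely AP-1 (TGANTCA), the motif of the family that BATF3 belongs to, PU.1 (GAGGAAGT), an ETS-IRF composite (GGAANNGAA) and the GC box (GGGCGG).
Batf3 (chr1:191098164-191098463, plus strand): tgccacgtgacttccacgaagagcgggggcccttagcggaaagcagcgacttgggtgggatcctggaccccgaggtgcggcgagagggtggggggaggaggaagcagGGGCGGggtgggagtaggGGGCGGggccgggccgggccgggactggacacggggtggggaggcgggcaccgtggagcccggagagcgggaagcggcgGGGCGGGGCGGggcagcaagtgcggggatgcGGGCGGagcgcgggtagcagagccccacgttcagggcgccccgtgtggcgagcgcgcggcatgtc
Zbtb46 (chr2:181424339-181424638, minus strand): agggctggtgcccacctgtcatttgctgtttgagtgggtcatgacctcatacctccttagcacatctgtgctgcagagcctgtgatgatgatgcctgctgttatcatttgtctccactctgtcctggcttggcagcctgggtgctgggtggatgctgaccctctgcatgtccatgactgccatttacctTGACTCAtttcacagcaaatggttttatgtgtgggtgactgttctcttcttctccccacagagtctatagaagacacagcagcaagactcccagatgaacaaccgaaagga
Clec9a (chr6:129408612-129408911, plus strand): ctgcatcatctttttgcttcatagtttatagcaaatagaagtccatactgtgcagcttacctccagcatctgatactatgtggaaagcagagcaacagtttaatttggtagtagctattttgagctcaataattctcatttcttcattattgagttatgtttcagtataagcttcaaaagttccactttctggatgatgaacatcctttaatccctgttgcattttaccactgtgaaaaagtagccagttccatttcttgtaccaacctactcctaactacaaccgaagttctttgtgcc
Cd209a (chr8:3748935-3749234, minus strand): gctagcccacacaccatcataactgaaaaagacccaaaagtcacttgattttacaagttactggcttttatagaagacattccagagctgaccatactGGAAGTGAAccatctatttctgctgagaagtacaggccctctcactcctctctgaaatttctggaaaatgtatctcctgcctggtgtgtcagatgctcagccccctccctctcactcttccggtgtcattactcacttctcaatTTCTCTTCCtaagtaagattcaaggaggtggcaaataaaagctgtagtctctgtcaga
The Batf3 window was 75.7% G and C, against a median of 52.7% over all promoters, and held 5 GC boxes, 2 of which overlap by 1 base. The Clec9a window was 37% G and C and held none of the 4 motifs. The Zbtb46 window was 50.7% G and C and held a single AP-1 match, 61 bases before that internal start. The Cd209a window was 44% G and C and held 2 ETS-IRF composite matches, at 152 and 8 bases before the start. Of all promoters, 35.7% held a GC box, 7.81% an AP-1 match, 8.24% an ETS-IRF composite and 3.2% a PU.1 match, and no PU.1 match was found in the 8 windows of these genes. A match is a stretch of letters and was not tested as a binding site.

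Batf3 (ENSMUSG00000026630, chr1:191097847-191108945, plus strand) encodes a short AP-1 family factor needed for type 1 conventional dendritic cells. Its level was 7.30, 6.46, 5.51 and 6.44 CPM in vehicle replicates 1 to 4. At 10 µM IPA it was 10.8, 10.5, 10.6 and 8.56 CPM, and at 50 µM IPA 14.8, 15.8, 14.9 and 13.2 CPM. The 3 groups did not overlap, and every library at 50 µM lay above every library at 10 µM, which in turn lay above every vehicle library. Against vehicle, Batf3 rose 2.30-fold at 50 µM IPA (log2 fold change 1.20, SE 0.12, 95% interval 0.94 to 1.46, adjusted p = 3.55e-05, edgeR quasi-likelihood test), and it ranked at place 59 of the 14894 genes by p. Against 10 µM IPA it rose 1.45-fold at 50 µM (log2 fold change 0.54, interval 0.30 to 0.78, edgeR adjusted p = 0.00381). At 10 µM IPA against vehicle the log2 fold change was 0.65, with an interval of 0.38 to 0.93, and the edgeR adjusted p of 0.0550 did not pass. That call rested on the fit, since the adjusted p was 0.00110 in DESeq2, 0.0242 in edgeR with no filter on low counts and 0.0123 in edgeR with all 12 libraries. It did not pass in any of the 8 edgeR fits that left out a library.

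Zbtb46 (ENSMUSG00000027583, chr2:181387762-181459426, minus strand) encodes a zinc finger factor of conventional dendritic cells and their committed progenitors. It was 13.8, 13.5, 13.3 and 12.8 CPM in vehicle. At 10 µM IPA it was 14.4, 15.2, 12.4 and 14.6 CPM, and at 50 µM 17.1, 19.3, 18.1 and 14.7 CPM. All of the libraries at 50 µM were above those of vehicle, and 1 of them, replicate 4, lay within the range of the libraries at 10 µM. Zbtb46 rose 1.31-fold at 50 µM IPA against vehicle (log2 fold change 0.38, SE 0.10, interval 0.16 to 0.61, edgeR adjusted p = 0.0263). The differences between 10 µM and vehicle (log2 0.09, edgeR adjusted p = 0.883) and between 50 and 10 µM (log2 0.29, edgeR adjusted p = 0.0823) did not pass. The rise at 50 µM passed in 3 of the 8 fits that left out a library, the fewest of the 4 genes called. Its edgeR adjusted p was 0.0567 without vehicle replicate 1, 0.0694 without vehicle replicate 3, and 0.0549, 0.101 and 0.0681 without 50 µM IPA replicates 1, 2 and 3. The difference from 10 µM IPA passed when 50 µM replicate 4 was left out (edgeR adjusted p = 0.0426).

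Flt3 (ENSMUSG00000042817, chr5:147330741-147400489, minus strand), the receptor tyrosine kinase whose ligand drives dendritic cell development, was low and did not pass in any comparison. It was 3.63, 3.60, 4.16 and 4.37 CPM in vehicle, 2.93, 2.61, 3.80 and 3.39 CPM at 10 µM IPA and 4.49, 3.77, 3.49 and 4.11 CPM at 50 µM IPA. The 3 groups overlapped. The log2 fold change was -0.30 at 10 µM against vehicle (interval -0.68 to 0.07, edgeR adjusted p = 0.700) and 0.02 at 50 µM against vehicle (interval -0.34 to 0.37, edgeR adjusted p = 0.964). The second interval leaves room for a difference of nearly the size measured for Zbtb46.

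**Figure D1:**
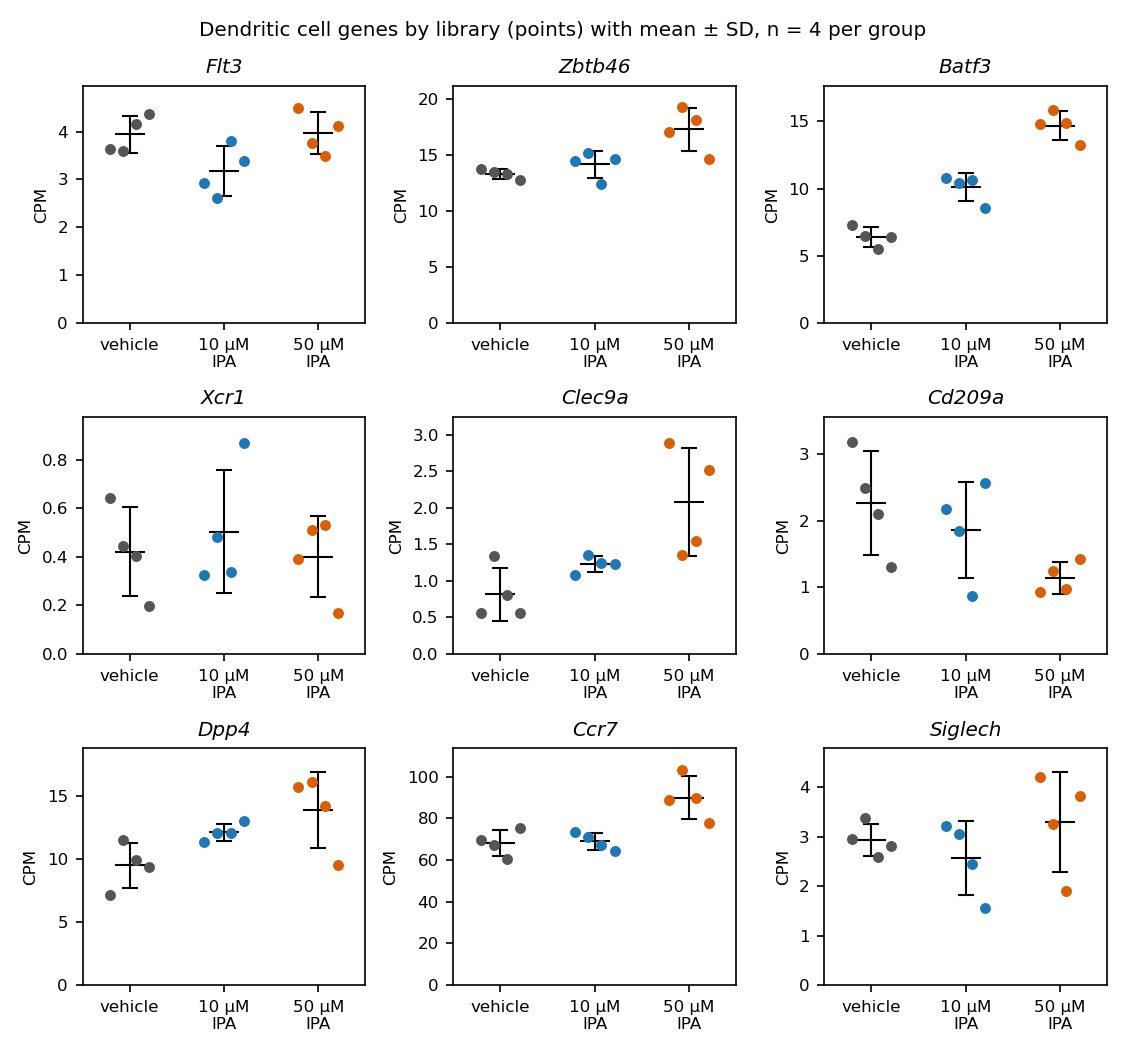
Level of each of the 9 dendritic cell genes in CPM (linear axes from 0) in the 4 libraries of each group, drawn as points in the order of replicates 1 to 4, with the mean as a long bar and the SD as error bars. The 3 groups of Batf3 are separate, with means of 6.42, 10.1 and 14.7 CPM, while those of Xcr1, Siglech and Flt3 overlap.

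Clec9a and Xcr1 are markers of type 1 conventional dendritic cells, and both were low. Clec9a (ENSMUSG00000046080, chr6:129408862-129424763, plus strand) encodes a lectin that senses actin filaments of dead cells. It was 0.567, 1.34, 0.806 and 0.556 CPM in vehicle, and 1.09, 1.35, 1.24 and 1.24 CPM at 10 µM IPA. Under 50 µM IPA it was 2.88, 1.35, 1.55 and 2.52 CPM. The lowest library at 50 µM, replicate 2 with 37 reads, was only just above the highest vehicle library, replicate 2 with 36 reads. Clec9a rose 2.54-fold at 50 µM IPA against vehicle (log2 fold change 1.34, SE 0.37, interval 0.54 to 2.15, edgeR adjusted p = 0.0303). Against 10 µM IPA the log2 fold change was 0.75 (interval 0.12 to 1.39, edgeR adjusted p = 0.105). At 10 µM against vehicle it was 0.58 (interval -0.20 to 1.36, edgeR adjusted p = 0.728). The libraries at 10 µM overlapped both of the other groups. The rise at 50 µM no longer passed with the replicate number as a block (edgeR adjusted p = 0.0640), nor without vehicle replicate 1 (0.0865), vehicle replicate 3 (0.0756), 50 µM replicate 1 (0.0956) or 50 µM replicate 4 (0.0925). Its annotated exons share 184 bases with Clec1b, a lectin of platelets on the same strand, which was at 6.58, 5.47 and 6.32 CPM in the 3 groups and did not pass in any comparison.

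Xcr1 (ENSMUSG00000060509, chr9:123852315-123862029, minus strand), the receptor for the chemokine XCL1, was the least expressed of the 9 genes. Its counts were 17, 12, 9 and 5 reads in vehicle, 9, 10, 9 and 19 at 10 µM IPA and 8, 14, 11 and 4 at 50 µM IPA. At means of 9.25 to 11.8 reads per library, counting alone gives a coefficient of variation of 29.2% to 32.9%. No difference was detectable at this depth. The interval of the log2 fold change ran from -1.20 to 1.06 at 50 µM and from -0.88 to 1.35 at 10 µM against vehicle (edgeR adjusted p = 0.952 and 0.951).

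Cd209a (ENSMUSG00000031494, chr8:3743397-3748984, minus strand) encodes a C-type lectin of the DC-SIGN group found on monocyte-derived dendritic cells. It was the only 1 of the 9 genes whose mean stepped down with dose, at 2.27 ± 0.777, 1.86 ± 0.726 and 1.14 ± 0.236 CPM (SD, n = 4). The libraries were at 3.18, 2.49, 2.10 and 1.31 CPM in vehicle, 2.17, 1.84, 0.865 and 2.56 CPM at 10 µM IPA and 0.928, 1.24, 0.970 and 1.43 CPM at 50 µM IPA. Vehicle replicate 4 lay within the range at 50 µM, and the libraries at 10 µM spanned most of both ranges. The log2 fold change at 50 µM against vehicle was -0.97 (SE 0.31, interval -1.64 to -0.30), and the edgeR adjusted p of 0.0546 did not pass. It was called lower by DESeq2 (adjusted p = 0.0244), by edgeR with no filter (0.0402), with at least 10 counts in every library (0.0389) and without vehicle replicate 4 (0.0114).

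Dpp4 (ENSMUSG00000035000, chr2:62330073-62412231, minus strand) encodes CD26, a surface peptidase that is found on type 1 conventional dendritic cells but also on T cells and epithelia. It was 7.15, 11.5, 9.90 and 9.38 CPM in vehicle and 11.3, 12.0, 12.1 and 12.95 CPM at 10 µM IPA. At 50 µM IPA 3 libraries were at 15.7, 16.1 and 14.2 CPM and replicate 4 was at 9.48 CPM, within the vehicle range. The log2 fold change at 50 µM against vehicle was 0.56 (SE 0.18, interval 0.18 to 0.93, edgeR adjusted p = 0.0522), just short of the threshold. It passed in edgeR without 50 µM replicate 4 (log2 0.70, adjusted p = 0.0143), without vehicle replicate 2 (0.0309) and without vehicle replicate 4 (0.0492), and in DESeq2 (0.0253), in edgeR with no filter (0.0109) and with all 12 libraries (0.0271). At 10 µM against vehicle the log2 fold change was 0.35 (interval 0.05 to 0.65), with an unadjusted p of 0.0247 in edgeR and an adjusted p of 0.450. An antisense transcript, Gm13561, shares 232 exonic bases with Dpp4 and had 0 to 5 reads per library.

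Ccr7 (ENSMUSG00000037944, chr11:99144196-99155077, minus strand) was the most expressed of the 9 genes. It was 69.8, 67.5, 60.5 and 75.5 CPM in vehicle and 73.4, 71.2, 67.1 and 64.4 CPM at 10 µM IPA, and these 2 groups lay in the same range. Under 50 µM IPA it was 88.7, 103, 90.0 and 78.0 CPM, and all of those libraries were above all of the others. Ccr7 rose 1.32-fold against vehicle (log2 fold change 0.41, SE 0.10, interval 0.20 to 0.61, edgeR adjusted p = 0.0135) and 1.31-fold against 10 µM IPA (log2 fold change 0.39, SE 0.08, interval 0.21 to 0.56, edgeR adjusted p = 0.00484). Between 10 µM IPA and vehicle the log2 fold change was 0.01, with an interval of -0.16 to 0.19 (edgeR adjusted p = 0.985). The rise against vehicle missed the threshold without vehicle replicate 3 (edgeR adjusted p = 0.0554) or without 50 µM replicate 2 (0.0565), while that against 10 µM passed in all of the 8 fits that left out a library. B cells carry CCR7 too, and markers of B cells were higher in the same libraries. Their summed level was 39.4 to 49.8 CPM in vehicle, 52.2 to 67.0 CPM at 10 µM and 62.9 to 91.1 CPM at 50 µM. Of the 9 B cell markers tested, 6 rose at 50 µM IPA against vehicle, and 2 of the 11 listed, Vpreb1 and Igll1, did not pass the filter. The part of B cells in the difference of Ccr7 was not tested.

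Siglech (ENSMUSG00000051504, chr7:55768178-55778925, plus strand), a lectin of plasmacytoid dendritic cells, did not pass in any comparison. It was 2.95, 3.38, 2.60 and 2.82 CPM in vehicle, 3.22, 3.05, 2.44 and 1.56 CPM at 10 µM IPA and 4.20, 3.26, 1.89 and 3.82 CPM at 50 µM IPA. The groups overlapped, and the libraries under IPA were more spread than those of vehicle. The log2 fold change at 50 µM against vehicle was 0.17 (interval -0.34 to 0.68, edgeR adjusted p = 0.690), and at 10 µM it was -0.19 (interval -0.71 to 0.32, edgeR adjusted p = 0.906).

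Per kilobase of exon, the scale on which genes can be set beside each other, Ccr7 led in every group. Its level in vehicle was 34.55 CPM per kilobase, followed by Batf3 at 4.02, Zbtb46 at 1.57, Dpp4 at 1.50, Cd209a at 1.43, Siglech at 0.868, Flt3 at 0.638, Clec9a at 0.248 and Xcr1 at 0.0949. In vehicle, Zbtb46, Dpp4 and Cd209a differed from each other by less than the spread of Dpp4 or Cd209a between libraries (SD 0.285 and 0.491 CPM per kilobase). At 50 µM IPA Cd209a stood at 0.722 and Clec9a at 0.631 CPM per kilobase, so these 2 genes had nearly the same level, while Batf3 stood at 9.20 and Ccr7 at 45.5.

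Across the 9 genes the median log2 fold change was 0.09 at 10 µM against vehicle, 0.38 at 50 µM against vehicle and 0.32 at 50 µM against 10 µM, and over all genes tested it was -0.01, 0.01 and 0.01. The summed level of the 9 genes was 99.3 to 113 CPM in vehicle, 110 to 120 CPM at 10 µM and 127 to 165 CPM at 50 µM, and most of it was Ccr7. At 10 µM IPA, 6 of the 9 genes were above 0 on the log2 scale, against 48.2% of all genes, and Batf3 and Dpp4 were the 2 with an unadjusted p under 0.05 in edgeR, against 1308 of the 14894 genes. Of the 9 genes 0 passed after adjustment in edgeR and 0 in limma-voom, and 1, Batf3, in DESeq2, and these 3 fits called 61, 63 and 250 of the 14894 genes in that order. In the comparison of 50 µM IPA with vehicle 7 of the 9 were above 0, against 51.8% of all genes. In edgeR 6 of the 9 had an unadjusted p under 0.05, against 4159 of the 14894 genes, and 4 passed after adjustment. At 50 µM against 10 µM, 2 passed, Batf3 and Ccr7, where 15.4% of all genes did. The groups did not overlap for 1 of the 9 genes at 10 µM against vehicle (6.12% of all genes), for 4 at 50 µM against vehicle (20.0%) and for 2 at 50 µM against 10 µM (20.3%). The comparisons of each dose with vehicle share the 4 vehicle libraries, and the comparison of the doses uses the same treated libraries, so they are not independent.

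**Figure D2:**
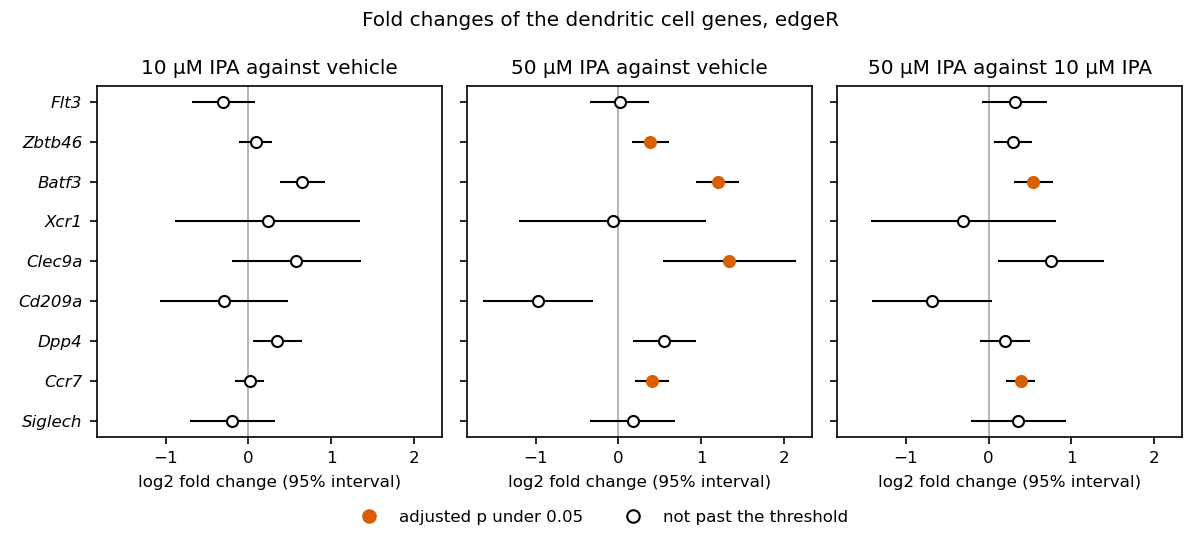
Log2 fold change of the 9 dendritic cell genes (points) with its 95% interval (lines) in 3 comparisons of 4 against 4 libraries, from edgeR, with filled points for an adjusted p under 0.05. No gene is filled at 10 µM IPA against vehicle, Zbtb46, Batf3, Clec9a and Ccr7 are filled at 50 µM against vehicle, and the interval of Xcr1 is wide in each panel.

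Other genes that mark dendritic cells were taken from 5 lists with 58 genes, none of them among the 9, of which 55 passed the filter. At 10 µM IPA 2 of the 55 rose against vehicle and none fell, where 0.410% of all genes were called. Both of these were C-type lectins of type 2 and monocyte-derived dendritic cells that macrophages also make, Mgl2, from 291 ± 16.3 to 374 ± 19.6 CPM (SD, n = 4, edgeR adjusted p = 0.0385), and Clec10a, from 20.4 ± 2.04 to 28.5 ± 1.18 CPM (edgeR adjusted p = 0.0394). Neither passed with the replicate number as a block, where 0 of the 55 did, and 0 of the 55 passed in 7 of the 8 fits that left out a library, the exception being that without vehicle replicate 4. Against vehicle, 15 of the 55 rose at 50 µM IPA and 7 fell. The median log2 fold change over the 55 was 0.08 at 10 µM and 0.06 at 50 µM, beside -0.01 and 0.01 over all genes.

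The 5 lists are given one by one for 50 µM IPA against vehicle, where 1042 of the 14894 genes rose and 968 fell. Whether the lists differ from each other or from all genes was not tested. Of 11 genes of mature migratory dendritic cells tested, the state that Ccr7 marks, 5 rose and none fell against vehicle, with a median log2 fold change of 0.28. Cd83, a surface protein of mature dendritic cells, went from 22.9 ± 1.42 CPM in vehicle and 24.8 ± 1.92 CPM at 10 µM to 44.1 ± 6.23 CPM at 50 µM (log2 fold change 0.95 against vehicle, edgeR adjusted p = 8.40e-05). The others were the chemokines Ccl22 and Ccl17, the cytokine signalling inhibitor Socs2 and the calcium channel subunit Cacnb3. B cell markers were also higher at 50 µM IPA, and the part of B cells in the differences of these genes was not tested. Of 11 plasmacytoid genes tested, 5 rose and none fell, with a median of 0.38, although Siglech did not pass. They were Cox6a2, Pacsin1, Spib, Bst2 and Tlr7, of which Spib and Tlr7 are also expressed in B cells. Cox6a2, a subunit of cytochrome oxidase, was at 0.340 to 0.993 CPM in vehicle, 0.145 to 1.01 CPM at 10 µM and 4.44 to 8.01 CPM at 50 µM. Its log2 fold change at 50 µM was 3.51 against vehicle (edgeR adjusted p = 1.24e-05) and 3.75 against 10 µM (edgeR adjusted p = 4.83e-06). Pacsin1, an adaptor of endocytosis, went from 3.32 ± 0.654 CPM in vehicle to 7.98 ± 1.34 CPM at 50 µM (log2 fold change 1.27, edgeR adjusted p = 0.000492).

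Among genes of type 1 conventional dendritic cells, the kind of cell that Batf3, Clec9a and Xcr1 mark, 1 of 9 tested rose and 2 fell at 50 µM against vehicle, and the median log2 fold change was -0.29. The integrin Itgae rose, from 4.06 ± 0.346 to 7.04 ± 1.65 CPM. Tlr3, a sensor of double-stranded RNA, fell from 3.12 ± 0.879 CPM in vehicle to 1.56 ± 0.373 CPM at 50 µM (interval of the log2 fold change -1.58 to -0.43, edgeR adjusted p = 0.0243), and against 10 µM its log2 fold change was -1.05 (edgeR adjusted p = 0.0110). The amidase Naaa fell from 269 ± 22.9 to 164 ± 10.3 CPM. Naaa and Tlr3 are made by macrophages as well.

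In the list of type 2 and monocyte-derived dendritic cell genes, to which Cd209a belongs by its known expression, 2 of 12 rose at 50 µM IPA against vehicle and 4 fell, with a median of -0.09. The 2 that rose were the lectins called at 10 µM. Mgl2 reached 631 ± 61.5 CPM at 50 µM (log2 fold change 1.12 against vehicle, edgeR adjusted p = 3.22e-06). The chemokine receptor Cx3cr1 fell from 8.87 ± 1.44 to 4.04 ± 0.251 CPM (log2 fold change -1.13, edgeR adjusted p = 0.000296), and Clec4a1, Clec4a3 and Il1r2 also fell. Against 10 µM IPA the log2 fold change was -1.10 for Cx3cr1, and -1.08 and -1.05 for the monocyte lectins Clec4a1 and Clec4a3. The edgeR adjusted p was 0.000283, 2.74e-06 and 1.04e-05 in that order.

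Of 12 regulators of the dendritic lineage other than Batf3 and Zbtb46, 2 rose and 1 fell at 50 µM IPA against vehicle, with a median of -0.04. Irf4, a factor of type 2 conventional dendritic cells that also acts in macrophages and B cells, rose from 111 ± 8.69 to 158 ± 8.75 CPM (log2 fold change 0.52, edgeR adjusted p = 0.000639). Irf8, which works with BATF3 in type 1 cells and is also needed by monocytes and B cells, rose from 86.6 ± 1.35 to 114 ± 5.18 CPM (log2 fold change 0.40, edgeR adjusted p = 0.00142). Klf4, a factor of monocytes and of a subset of type 2 cells, fell from 35.2 ± 2.60 to 23.2 ± 3.11 CPM against vehicle and had a log2 fold change of -0.90 against 10 µM (edgeR adjusted p = 7.69e-06). At 50 µM against 10 µM, 11 of the 55 genes of the 5 lists rose and 11 fell, and over all 14894 genes 1120 rose and 1169 fell.

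**Figure D3:**
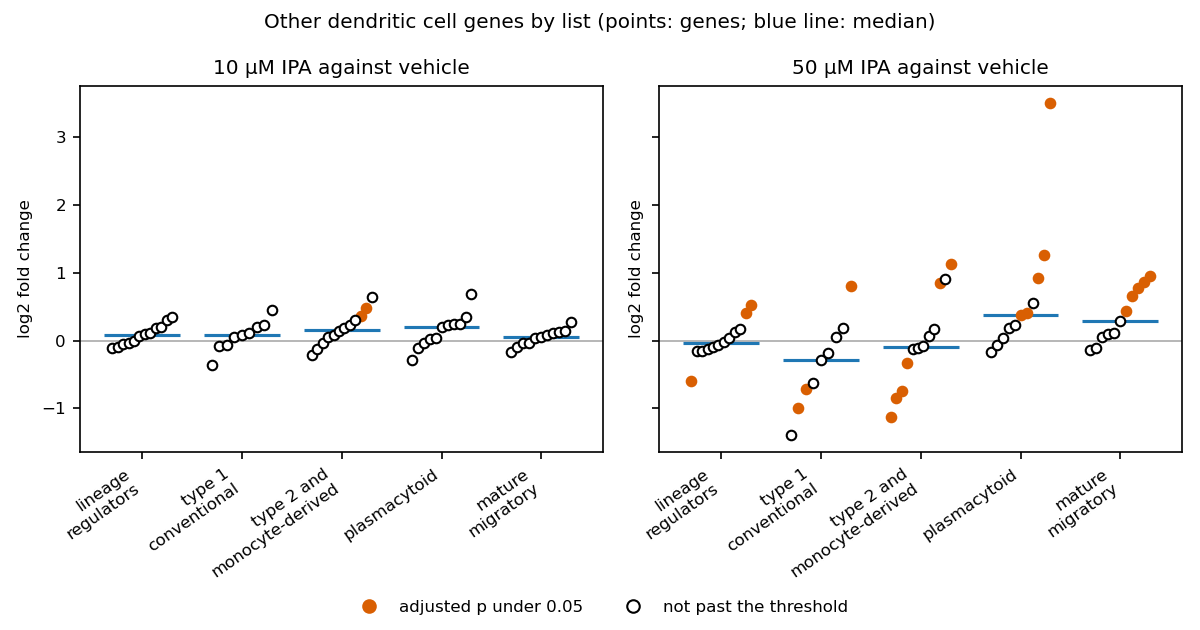
Log2 fold change of 55 other dendritic cell genes (points, ordered by value within 5 lists) at 10 µM and at 50 µM IPA against vehicle, with the median of each list as a line and filled points for an edgeR adjusted p under 0.05. At 10 µM 2 points are filled, and at 50 µM 22 are, with Cox6a2 at 3.51 as the highest.

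The ligands of the receptors were mostly at or near 0. Flt3l, which encodes the ligand of FLT3, was at 2.52 ± 0.639, 2.71 ± 0.662 and 3.37 ± 0.529 CPM in vehicle, 10 µM and 50 µM IPA (SD, n = 4) and did not pass in any comparison. Xcl1, the ligand of XCR1, had 0 to 5 reads per library. Of the ligands of CCR7, Ccl19 had 0 to 2 reads and Ccl21a none. Among 26 relatives of the 9 genes by sequence family, 19 passed the filter. Batf and Batf2, the closest relatives of Batf3, and Cd209c did not pass the test in any comparison. At 50 µM IPA against vehicle none of the 19 rose and 4 fell, which were Kit and Csf1r, of the same receptor family as Flt3, the sialic acid lectin Cd33 and the peptidase Dpp9. Csf1r, the receptor of the macrophage growth factor, went from 938 ± 30.3 CPM in vehicle to 738 ± 58.1 CPM at 50 µM (edgeR adjusted p = 0.00769), while Flt3 did not pass.

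The cultures held RNA of many other cells. In vehicle the summed level of 12 neutrophil markers was 23560 to 32413 CPM and that of 12 macrophage markers 6800 to 7707 CPM, against 99.3 to 113 CPM for the 9 dendritic cell genes. At 10 µM and 50 µM IPA the macrophage markers were at 8235 to 9532 and 8330 to 9983 CPM and the neutrophil markers at 21965 to 25079 and 17992 to 24046 CPM. Most of the macrophage sum was Lyz2, the lysozyme gene that neutrophils and monocytes also express, with means of 5303, 6432 and 6911 CPM in vehicle, 10 µM and 50 µM IPA. Single genes differed, and at 50 µM against vehicle 3 of the 12 macrophage markers rose and 4 fell. At 10 µM against vehicle, where Mgl2 and Clec10a rose, 3 macrophage markers rose and none fell. All 12 were above 0 and their median log2 fold change was 0.34, while at 50 µM against 10 µM 1 rose and 8 fell. Over all genes, 2 rose at 10 µM against vehicle with the replicate number as a block, and 2 without 10 µM replicate 2. The 3 macrophage calls at 10 µM therefore did not all hold in those fits. Markers of Ly6C-high monocytes were at 2686 to 3424 CPM in vehicle, 3837 to 4924 CPM at 10 µM and 2417 to 3120 CPM at 50 µM. The largest part of that sum was Fn1, at means of 1450, 2552 and 1695 CPM. Ly6c2, of the same list, was at means of 580, 534 and 445 CPM, and so was not higher at 10 µM. By flow cytometry of such cultures the paper reports a lower share of Ly6C-high monocytes with IPA, which is a measure of cells and not of RNA. Of these 6 monocyte markers 1 rose at 10 µM against vehicle, while at 50 µM 3 fell against vehicle, with a median log2 fold change of -0.56, and 5 fell against 10 µM. In the progenitor list 7 of 10 markers fell and 1, Cd34, rose at 50 µM IPA against vehicle, where their sum was 883 to 1225 CPM against 1749 to 2469 CPM in vehicle. The levels of mast cell and basophil markers were 325 to 397 CPM in vehicle and 364 to 472 CPM at 50 µM, and those of eosinophil markers 1097 to 1346 and 850 to 1119 CPM. Of T and NK cell markers, 6 of 11 were tested and none passed at either dose against vehicle, with sums of 11.2 to 23.6 CPM in vehicle and 11.0 to 19.2 CPM at 50 µM. The part of these cells in the differences of the 9 genes was not tested.

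**Figure D4:**
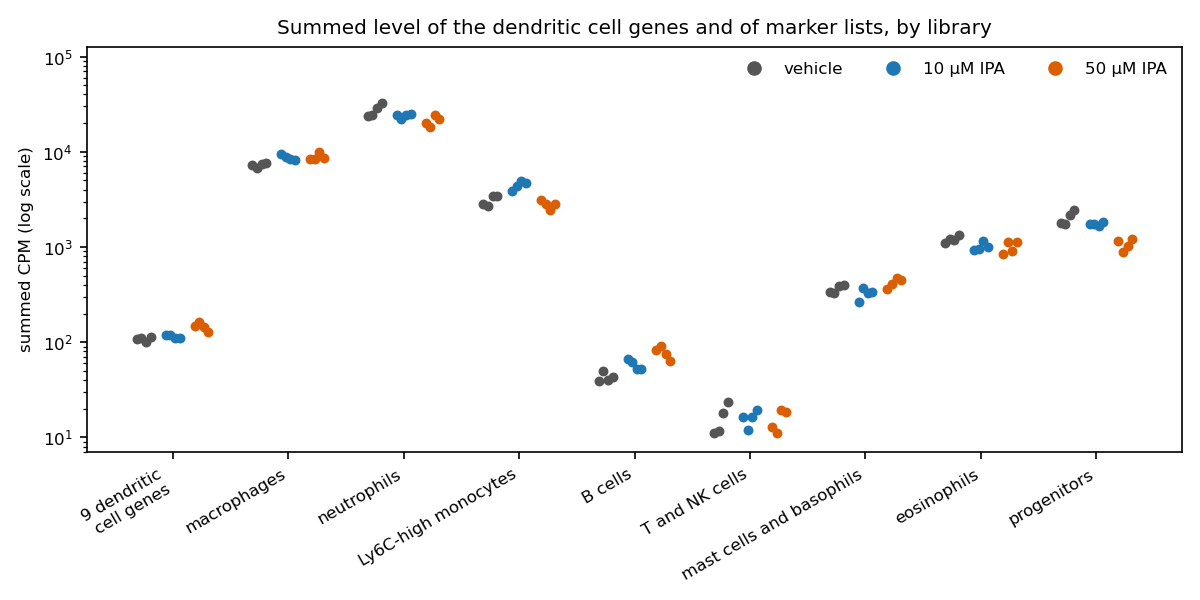
Summed CPM (log axis) of the 9 dendritic cell genes and of 8 marker lists in each library, with vehicle, 10 µM IPA and 50 µM IPA as grey, blue and orange points. The sums of the 9 genes and of the B cell markers are highest at 50 µM IPA, at 127 to 165 and 62.9 to 91.1 CPM, and that of the progenitor markers is lowest there.

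For each of the 9 genes except Xcr1, whose mean was under 1 CPM, the pattern was compared with every other tested gene by Pearson's r of log2 CPM over the 12 libraries, which share their group means, so that the values are descriptions. The floor of 1 CPM was not applied to the genes compared, and Gm6087 had a mean of 0.412 CPM. The genes most like Batf3 were Plekho1 (r = 0.98) and Ccl24 (0.97), and Ccl24, the eotaxin-2 gene, was at 1.31, 4.69 and 13.05 CPM in vehicle, 10 µM and 50 µM IPA. For Ccr7 they were the B cell receptor component Cd79a (0.95) and Kmo (0.94), for Zbtb46 Sla2 and Trim36 (both 0.92), and for Clec9a 2900026A02Rik (0.91) and Nags (0.88). For Dpp4 they were 4930477G07Rik (0.94) and Gm6087 (0.89), for Cd209a Map3k7 (0.90) and Cox11 (0.89), for Siglech Zfp599 (0.88) and Ppp2r3a (0.84), and for Flt3 Fkbp5 and Mcm8 (both 0.87). Among the 9 genes themselves r was 0.85 between Zbtb46 and Ccr7, 0.80 between Batf3 and Ccr7 and -0.64 between Batf3 and Cd209a over the 12 libraries. With the group means removed it was 0.55, 0.74 and -0.15 for these pairs. Between Batf3 and Zbtb46 r was 0.79 over the 12 libraries and 0.27 with the group means removed. Clec9a had r of 0.73 with Batf3, 0.53 with Zbtb46 and 0.44 with Ccr7 over the 12 libraries. With the group means removed those values were -0.35, -0.34 and -0.56.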

How the data were processed

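The authors trimmed the reads of stranded mRNA libraries, aligned them with HISAT2 2.2.1 to mm10 and deposited raw counts per Ensembl gene from featureCounts 2.0.1. The strand setting used in counting is not given in the sources used here. Total counts were 20451312 to 28038612 per library, and no 2 libraries of a group agreed within sampling noise. The labels set the groups. The title of 10 µM replicate 3 repeats that of replicate 2, so its library name was used. CPM uses TMM library sizes over the 12 libraries. Each comparison of 2 groups was fitted to all 14894 genes with edgeR 4.0.16 (R 4.3.3, TMM, quasi-likelihood, two-sided, Benjamini-Hochberg over all genes tested, threshold 0.05), after a test on simulated data. DESeq2 1.42.0 and limma 3.58.1 (voom), other size factors and filters, all 12 libraries in the fit, the replicate number as a block and each library left out were alternatives. The 9 genes and all lists were chosen with earlier results of these data known. All of the 9 genes are named. In each comparison up to 6 called genes of the 5 dendritic lists with the largest log2 fold changes were named, and genes named beside other small counts were chosen after their values were seen. Intervals are the 95% intervals of the edgeR fit.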

Additional observations from a re-analysis of the deposited data

Results flagged for a closer look

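Of the 27 sets of 4 libraries formed by the 9 dendritic cell genes and 3 groups, 1 held a library far from the others. Batf3 was at 8.56 CPM in replicate 4 at 10 µM IPA, against 10.5 to 10.8 CPM in the other 3 libraries of that group, and the gap was 0.835 of the group's range, above Dixon's 95% critical value for 4 samples. Chance alone marks about 1 in 20 such sets. Without that library the log2 fold change of Batf3 at 10 µM IPA against vehicle was 0.73.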

How the results depend on the processing

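Of the 9 dendritic cell genes, 0 passed at 10 µM IPA against vehicle in edgeR, and 1, Batf3, did in DESeq2, with no filter and with all 12 libraries in the fit. Over all genes the 61 calls became 250, 150 and 118 in those fits, and 4 (without 10 µM replicate 2) to 122 (without vehicle replicate 4) when a library was left out. Of the other dendritic cell genes, 2 passed, 5 did in DESeq2, and 0 to 2 did without 1 library, 0 in every fit but that without vehicle replicate 4. With the replicate number as a block, 0 of them and 3 genes in all passed. At 50 µM IPA against vehicle the 4 calls among the 9 genes ranged from 1 without vehicle replicate 3, where Batf3 alone passed, to 6 without vehicle replicate 4. Those of other dendritic cell genes ranged from 18 to 23, and those over all genes from 1248 (without vehicle replicate 3) to 2689 (without vehicle replicate 4). At 50 against 10 µM they ranged from 2 to 3, from 14 (without 50 µM replicate 2) to 21 and from 1604 to 2269.

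Directions turned only where a library was left out, in genes that never passed or in a comparison where the gene did not. The log2 fold change at 10 µM against vehicle ran from -0.036 to 0.066 for Ccr7 and from -0.15 to 0.51 for Xcr1, and at 50 µM against vehicle from -0.053 to 0.072 for Flt3 and from -0.30 to 0.20 for Xcr1. At 50 against 10 µM it ran from -0.47 to 0.084 for Xcr1. Of 402 values of the 9 genes under alternatives, 12 changed direction. The cause was not tested, apart from the number of libraries and genes that each setting changes.

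Libraries of the same number did not deviate together (r from -0.24 to 0.14 over the 3 comparisons), and not every library was most like its own number. With 4 libraries per group this cannot settle whether the numbers pair the samples, and the labels do not state a pairing. The block took the calls among the 9 genes at 50 µM against vehicle from 4 to 3, and Clec9a was the 1 lost (adjusted p = 0.0640). Xcr1 had means of 9.25 to 11.8 reads per library, for which counting alone gives a coefficient of variation of 29.2% to 32.9%. In vehicle the measured variation was 34.3% for Cd209a and 44.7% for Clec9a, against 13.2% and 21.95% from counting.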
